A study of Mus musculus with 6 samples.

Results

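Sprouty, Spred and Dusp genes encode inhibitors that restrain signalling from receptor tyrosine kinases to the kinase ERK. The 7 genes followed here are Spry1, Spry2, Spry4, Spred1, Spred2, Dusp6 and Dusp4. They were read by every probe set annotated to 1 of them alone, 22 of the 45037 tested, and the brightest probe set of a gene by its mean log2 value over the 6 arrays stands for it as its representative. All 7 were measured among 18193 genes. The arrays held RNA of whole mouse kidney at the embryonic stage E13.5 from 3 kidney samples that lacked both Frizzled receptors, Fz4 and Fz8 (Fz4-/-Fz8-/-, called double-null, arrays M1, M2 and M3), and 3 that lacked Fz8 alone (Fz4+/+Fz8-/-, called Fz8-null, arrays C1, C2 and C3). Fz8 was thus absent in both groups, and no wild-type kidney was among the arrays. All carried a hybrid background of the strains 129S1/Sv, 129X1/SvJ and C57BL/6. The samples of a genotype were biological replicates, and the labels do not say whether an array held 1 embryo or several, nor give a batch.

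Growth factors such as GDNF, which acts through the receptor Ret, and the FGFs switch on Ras, Raf, MEK and ERK in the cells that branch and pattern the kidney. ERK in turn raises transcription of its own inhibitors. Sprouty proteins and the related Spred proteins act between the receptor and Raf, and Dusp6 and Dusp4 are phosphatases that remove the activating phosphates of ERK. In the mouse, Spry1 limits the response of the ureteric bud to GDNF, and embryos without it form extra buds. Transcript levels of these genes are therefore often read as a record of recent receptor signalling. The comparison asked how their levels differ when Fz4 is lost on top of Fz8, in a study of the 2 receptors in kidney growth.

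The genotype was visible in the data. Fzd4, which encodes Fz4, read 5.29, 4.96 and 3.89 in the double-null arrays, against 10.74, 10.86 and 10.93 in the Fz8-null arrays (probe-set log2 intensity, as for all levels below). Fzd8, which encodes Fz8, read 3.57, 3.60 and 3.90 in the double-null arrays, against 3.58, 4.42 and 3.93 in the Fz8-null arrays. The 5 measured defining genes of the embryonic kidney (Six2, Wt1, Gata3, Lhx1 and Foxd1) read between 6.86 and 11.05 on every array, so the labelled tissue was present. Probe sets that read between about 3 and 4 are near the background of the arrays. Arrays within a group were not alike. The 5 measured liver markers averaged 7.08, 9.87 and 10.07 in M1, M2 and M3, against 5.96, 6.63 and 5.79 in the Fz8-null arrays, and the 4 erythroid markers averaged 4.50, 7.40 and 7.45 in M1, M2 and M3, against 4.59, 4.81 and 4.57. The gap between the 3-prime and 5-prime actin control probe sets, a sign of RNA integrity and amplification, was 1.30, 1.08 and 0.57 in M1, M2 and M3, against 1.00, 0.74 and 0.75 in C1, C2 and C3. The B1 repeat control read 11.83, 12.08 and 10.85 in M1, M2 and M3, against 11.02, 10.67 and 10.73. Thus M3 stood apart from M1 and M2 in RNA controls, while M1 stood apart from M2 and M3 in liver and blood transcripts.

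None of the 7 feedback genes passed limma's moderated test at an adjusted p of 0.05 over all genes. For comparison, 0.0275% of all genes passed. At an unadjusted p under 0.05 limma gave 1 member, Spry4, lower in double-null kidneys, where 9.23% of all genes were lower at that level. Of the 7 genes, 6 had a lower mean in double-null kidneys and 1, Spred1, a mean that differed by 0.01. A lower mean was found for 58.1% of all genes, and for 71.5% of those with a mean log2 value of at least 6. The groups did not overlap for 2 of the 7, Spry4 and Spry1, both lower. Over all genes, 12.2% were lower without overlap and 6.68% higher without overlap. The median difference of the 7 was -0.29, beside -0.06 for all genes and -0.15 for the 11174 genes whose mean log2 value was at least 6. It was -0.16 both without M2 and with quantile normalization, where those brighter genes had medians of -0.09 and -0.06. Whole kidneys were profiled, so fewer cells of a type and less RNA per cell cannot be told apart.

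**Figure D1:**
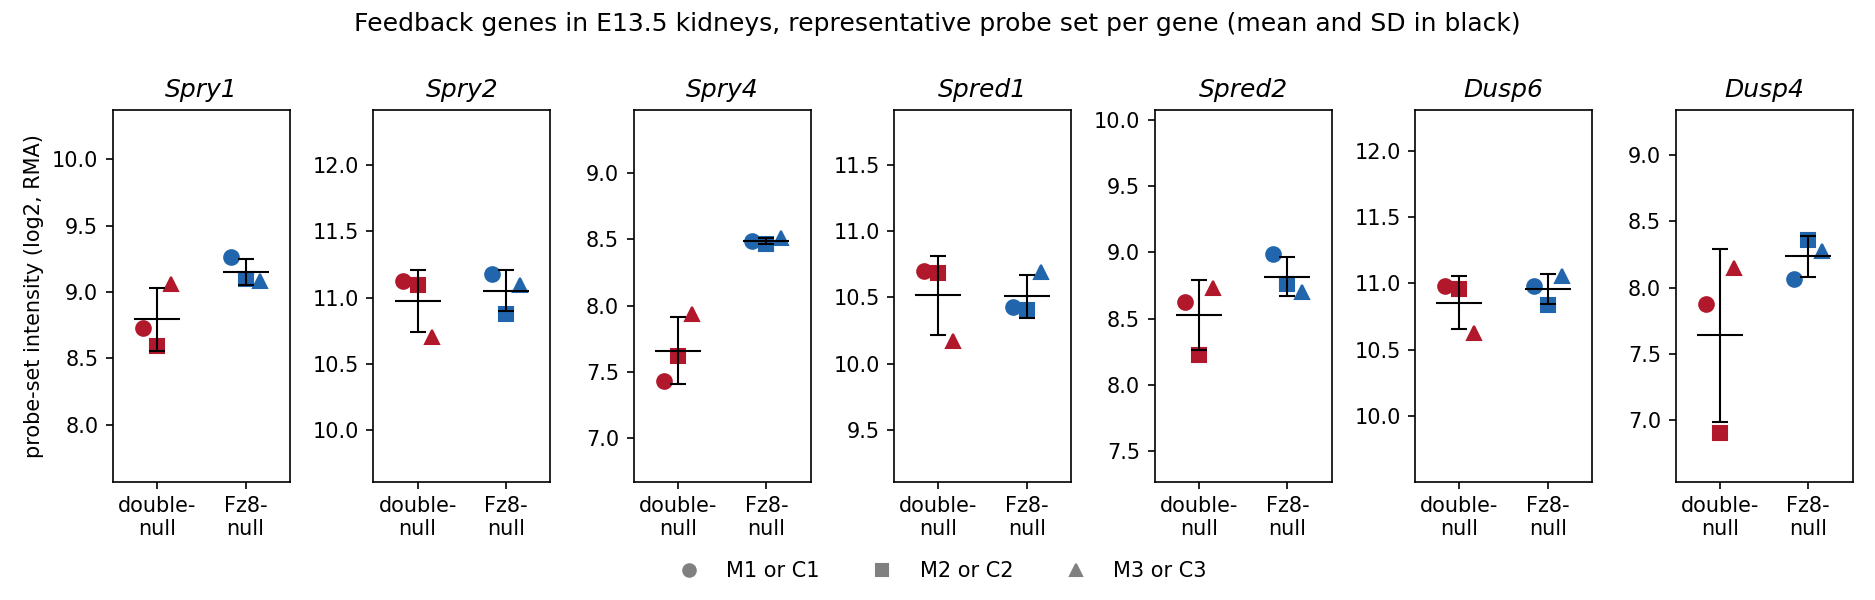
The representative probe set of each of the 7 genes by array; the vertical axis is log2 intensity, drawn to the same length in each panel, and points are single arrays with the mean and SD in black. For Spry4 the double-null arrays lie between 7.43 and 7.93 and the Fz8-null arrays between 8.46 and 8.51, while the groups overlap for Spry2, Spred1, Spred2, Dusp6 and Dusp4.

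Spry4 had the largest difference of the Sprouty genes. Its representative probe set (1440867_at) read 7.43, 7.62 and 7.93 in M1, M2 and M3, against 8.49, 8.46 and 8.51 in C1, C2 and C3. All 3 double-null arrays lay well below the Fz8-null arrays, which were nearly identical to each other. The means were 7.66 ± 0.25 in double-null and 8.49 ± 0.02 in Fz8-null kidneys (SD, n = 3 each), a log2 difference of -0.83 (SE 0.16, 95% interval -1.20 to -0.45; limma adjusted p = 0.299). The exact permutation p was 0.1, the smallest that 3 arrays against 3 can give. Spry4 encodes a Sprouty protein that is induced by FGF signalling in many embryonic tissues.

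A further Spry4 probe set gave a difference of the same size. Probe set 1445669_at read 7.40, 6.69 and 7.18 in the double-null arrays, against 7.73, 7.75 and 8.38 in the Fz8-null arrays. These groups did not overlap either, and the difference was -0.86 (SE 0.26; limma adjusted p = 0.322 over all probe sets). The other 2 Spry4 probe sets lay near background, with means of 3.77 and 3.71 over the 6 arrays, and stood at -0.41 and 0.12. Against the Fz8-null mean, M1 stood at -1.06, M2 at -0.87 and M3 at -0.55. M1 had the lowest liver and erythroid levels of the double-null arrays, and the part of these transcripts in the Spry4 difference was not tested. The difference was -0.74 when the actin gap was a covariate and -0.59 when the B1 signal was (limma adjusted p = 0.130 and 0.762). Without M3, Spry4 passed (-0.96, limma adjusted p = 0.00809), in a fit in which 10.7% of all genes passed as lower.

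Spry1 lay lower by a smaller margin. Its single probe set (1415874_at) read 8.73, 8.59 and 9.06 in M1, M2 and M3, against 9.26, 9.10 and 9.09 in C1, C2 and C3. The groups were apart only narrowly, since M3 was just under C3. The means were 8.79 ± 0.24 in double-null and 9.15 ± 0.10 in Fz8-null kidneys (SD, n = 3 each), with a difference of -0.36 (SE 0.16, 95% interval -0.73 to 0.02; limma adjusted p = 0.333; exact permutation p = 0.1). The difference was -0.49 without M3 (limma adjusted p = 0.0502), -0.26 without M2, and -0.12 once the B1 signal was a covariate.

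Spry2, a Sprouty gene of the ureteric bud, showed no separation. Its representative probe set (1436584_at) read 11.13, 11.09 and 10.71 in M1, M2 and M3, against 11.18, 10.88 and 11.10 in C1, C2 and C3. M1 and M2 lay within the Fz8-null values and M3 below all of them. The means were 10.98 ± 0.23 in double-null and 11.05 ± 0.15 in Fz8-null kidneys (SD, n = 3 each), a difference of -0.08 with a 95% interval of -0.47 to 0.32 (limma adjusted p = 0.824). The difference was -0.37 once the B1 signal was a covariate and -0.17 with the actin gap as one. A dimmer Spry2 probe set (1421656_at) stood at 0.08. The 95% interval of the representative probe set leaves room for a difference of the size seen for Spry1.

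The change in Spry4 relative to the other Sprouty genes was compared within each array. The Spry4 difference minus the Spry1 difference was -0.47 (SE 0.11), and the Spry4 difference minus the Spry2 difference was -0.75 (SE 0.29). For both pairs the 3 double-null arrays were apart from the 3 Fz8-null arrays (exact permutation p = 0.1 for each, adjusted p = 0.25 over 5 within-family pairs). The Spry1 and Spry2 differences were -0.28 apart, with overlap (exact permutation p = 0.4). The 5 pairs were not among the planned comparisons, and each puts the gene with the lower difference first. The share of all gene pairs that separate the groups was not computed. Once the B1 signal was a covariate, Spry4 stood at -0.59, Spry1 at -0.12 and Spry2 at -0.37.

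The 150 bases ahead of the annotated start of Spry1, Spry2 and Dusp6 are shown because these genes, 1 apart and 2 overlapping between the groups, belong to a pathway in which ETS factors such as Etv4 and Etv5 act. The sequences are from RefSeq (GRCm38.p6), 5′ to 3′ on the gene's strand, with GGAA, the short core of ETS sites, or its complement TTCC in capitals.
Spry1 (chr3:37639797-37639946, + strand): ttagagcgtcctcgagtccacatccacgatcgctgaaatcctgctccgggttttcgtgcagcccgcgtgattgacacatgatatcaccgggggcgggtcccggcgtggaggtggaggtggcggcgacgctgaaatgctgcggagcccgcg
Spry2 (chr14:105896820-105896969, - strand): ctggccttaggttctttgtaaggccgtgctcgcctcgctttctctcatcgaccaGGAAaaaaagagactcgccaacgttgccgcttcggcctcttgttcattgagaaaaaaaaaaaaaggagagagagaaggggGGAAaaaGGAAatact
Dusp6 (chr10:99263081-99263230, + strand): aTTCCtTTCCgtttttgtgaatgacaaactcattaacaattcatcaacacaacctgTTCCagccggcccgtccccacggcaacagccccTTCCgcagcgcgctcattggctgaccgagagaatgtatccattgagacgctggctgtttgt
Within these stretches Spry1 held 0 copies of GGAA, Spry2 held 3 and Dusp6 held 4, counting both strands. In the whole 300-base windows, which run from 250 bases before to 50 after the start, Spry1 had 1, Spry2 5, Dusp6 6, Spred1 5 and Spred2 7, beside a median of 3 over 32851 windows, of which 96% held at least 1. The longer ETS core CCGGAAG and the TCF/LEF motif CTTTGAT, searched on both strands, were in 0 of the 5 member windows, and in 8.86% and 3.73% of all windows. CCGGAAG contains GGAA. GGAA was added once the longer core had given no match. No window was matched for Spry4 or Dusp4.

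Spred2 had a lower mean in 4 of its 5 probe sets, but the groups overlapped in its representative one. The representative one (1434403_at) read 8.62, 8.23 and 8.73 in M1, M2 and M3, against 8.98, 8.76 and 8.70 in C1, C2 and C3. M1 and M2 were below every Fz8-null array and M3 was not. The means were 8.53 ± 0.27 in double-null and 8.82 ± 0.15 in Fz8-null kidneys (SD, n = 3 each), and the difference was -0.29 (SE 0.17, 95% interval -0.70 to 0.13; limma adjusted p = 0.418). It was -0.14 without M2, -0.16 with quantile normalization and -0.10 once the B1 signal was a covariate. The 4 of 5 that stood lower compare with a lower mean in 58.1% of all genes and 71.5% of those averaging at least 6. Probe set 1441802_at was without overlap at -0.48, and 1441415_at had the largest difference of all 22, at -1.05 (SE 0.42; limma adjusted p = 0.322), with 5.09, 5.02 and 6.58 in M1, M2 and M3, against 6.60, 6.43 and 6.79. That difference came from M1 and M2, since M3 read within the Fz8-null range. Spred2 encodes a membrane-associated inhibitor of Raf activation.

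Spred1, a close relative whose protein recruits the Ras inactivator neurofibromin to the membrane, had nearly equal group means in its representative probe set. That probe set (1423160_at) read 10.70, 10.68 and 10.17 in M1, M2 and M3, against 10.42, 10.40 and 10.69 in C1, C2 and C3. M1 and M2 were close to the highest Fz8-null array, and M3 was below all of them. The difference was 0.01 (SE 0.19, 95% interval -0.43 to 0.45; limma adjusted p = 0.982), with means of 10.52 ± 0.30 in double-null and 10.51 ± 0.16 in Fz8-null kidneys (SD, n = 3 each). The other Spred1 probe sets varied. The next brightest, 1423161_s_at, stood at -0.05 with overlap. Of all 8, 6 stood lower and 2 higher, over a range of -0.37 to 0.62, and 2 were lower without overlap (1428777_at and the near-background 1443652_x_at). At the upper end, 1445228_at read 7.61, 7.69 and 6.24 in M1, M2 and M3, against 6.68, 6.49 and 6.52, so M1 and M2 were above and M3 below every Fz8-null array. The mean of all 8 probe sets stood at -0.09. Once the B1 signal was a covariate, the representative probe set stood at -0.30.

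Dusp6, the ERK phosphatase of the cytoplasm, showed no separation either. Its single probe set (1415834_at) read 10.98, 10.96 and 10.62 in M1, M2 and M3, against 10.98, 10.83 and 11.06 in C1, C2 and C3. M1 and M2 lay within the Fz8-null range and M3 below it. The means were 10.85 ± 0.20 in double-null and 10.96 ± 0.11 in Fz8-null kidneys (SD, n = 3 each), a difference of -0.10 with a 95% interval of -0.46 to 0.25 (limma adjusted p = 0.730). The difference was -0.33 once the B1 signal was a covariate and -0.18 with the actin gap as one.

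Dusp4, a nuclear phosphatase of ERK and related kinases, had the most scattered double-null values. It read 7.87, 6.91 and 8.14 in M1, M2 and M3, against 8.06, 8.36 and 8.28 in C1, C2 and C3 (1428834_at). M2 was far below all other arrays and M3 was above C1. The means were 7.64 ± 0.65 in double-null and 8.23 ± 0.15 in Fz8-null kidneys (SD, n = 3 each), with a difference of -0.59 (SE 0.31, 95% interval -1.34 to 0.15; limma adjusted p = 0.373). It was -0.23 without M2, and 0.03 once the B1 signal was a covariate. The Dusp4 and Dusp6 differences were -0.49 apart and those of Spred2 and Spred1 -0.30 apart, both with overlap (exact permutation p = 0.4 and 0.5).

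**Figure D2:**
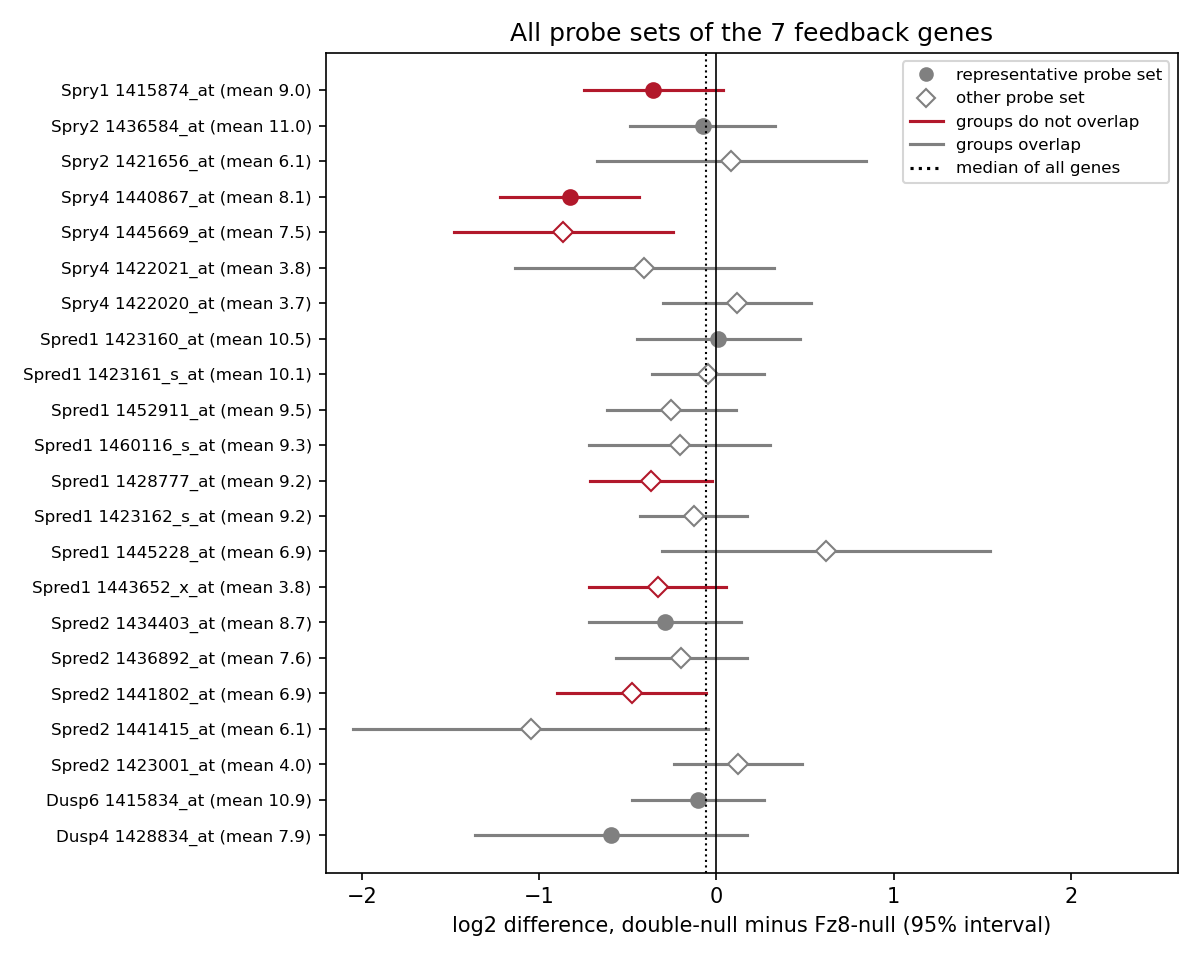
Log2 difference, double-null minus Fz8-null, with its 95% interval for all 22 probe sets of the 7 genes; filled circles are the representative probe sets, red marks groups without overlap, and the number after each name is the mean log2 value over the 6 arrays. Both brighter Spry4 probe sets stand near -0.8, and the 8 Spred1 probe sets run from -0.37 to 0.62.

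Over all 22 probe sets, 17 stood lower and 5 higher. The share of all probe sets that stood lower was not computed. Among genes it was 58.1%, and 71.5% of those with a mean of at least 6. None of the 22 passed limma's adjusted p of 0.05, where 0.0111% of all probe sets did. Of the 22, 6 were lower without overlap, beside 11.3% of all probe sets, and 0 were higher without overlap. The 6 comprised 2 of Spry4, 2 of Spred1, 1 of Spred2 and 1 of Spry1. Probe sets of 1 gene share their RNA and are not independent.

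The 7 genes differed in the place of M3 among the double-null arrays. M3 was the highest of the 3 for Spry1, Spry4, Spred2 and Dusp4, and the lowest of the 3 for Spry2, Spred1 and Dusp6. Over all genes M3 was the highest double-null array for 51.2% and the lowest for 30.3%, so such a divide was not particular to the 7. For Spry2, Spred1 and Dusp6 the gap between M3 and the lower of M1 and M2 was -0.39, -0.51 and -0.33, larger than the differences between the genotypes. M3 was also the array with the lowest actin gap and a B1 signal near that of the Fz8-null arrays. The part of these controls in the place of M3 was not tested. By the root mean square difference over the 6 arrays, each gene centred on its mean, the genes nearest in pattern to Spry1 were Fadd and Gtf3c3 (0.014 and 0.018), and those nearest to Spry4 were Amigo2 and Syt11 (0.086 and 0.087), out of 11167 genes. Those nearest to Spry2 were Ccm2 and Sox4 (0.042 and 0.046), and those nearest to Dusp6 were Jph1 and Clasp2 (0.037 and 0.044). Spred1 was closest to Cep170 and Qtrt2 (0.036 and 0.037), Spred2 to Nisch and Fam184a (0.023 and 0.030), and Dusp4 to Arfgef2 and Bag3 (0.054 and 0.069).

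**Figure D3:**
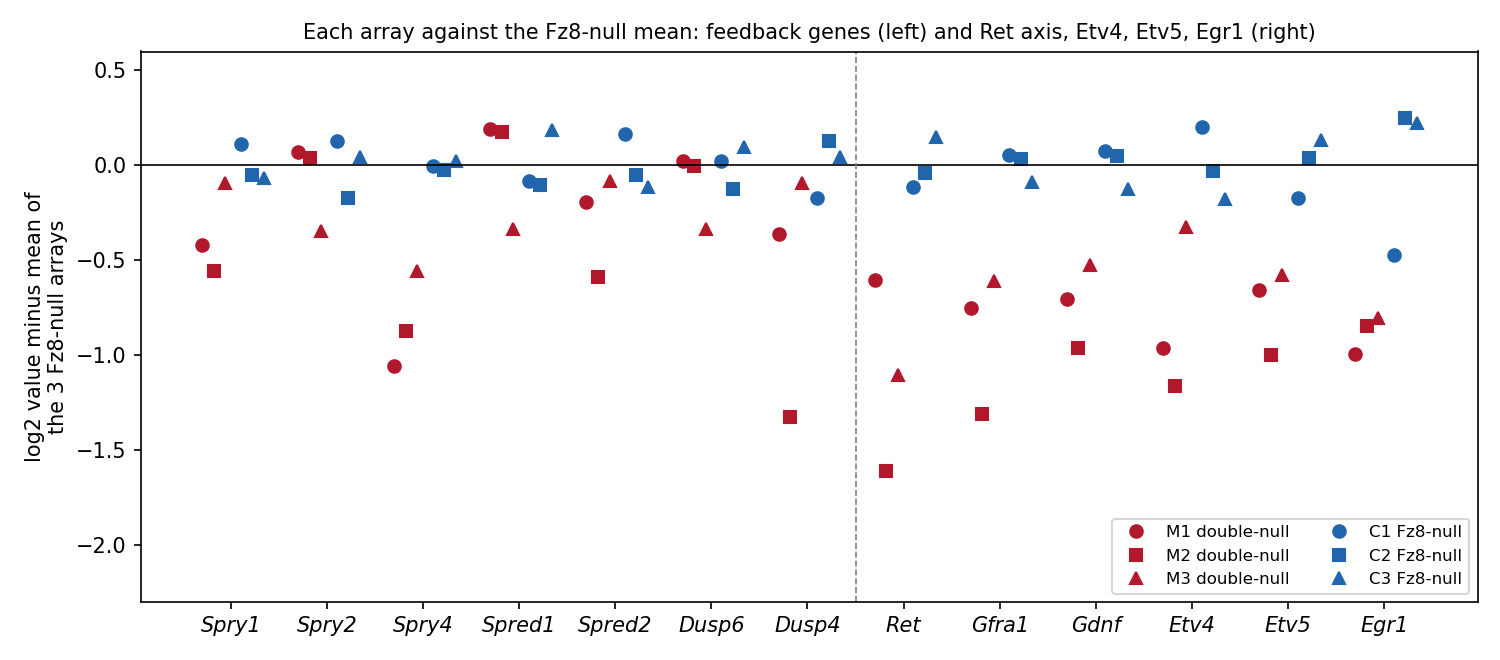
Log2 value of each array minus the mean of the 3 Fz8-null arrays, for the 7 feedback genes on the left and for Ret, Gfra1, Gdnf, Etv4, Etv5 and Egr1 on the right; red is double-null, blue is Fz8-null, and the marker shape gives the array number. All 3 double-null arrays lie below all Fz8-null arrays for Spry1, Spry4 and all 6 genes on the right, while for Spry2, Spred1 and Dusp6 only M3 does.

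Most receptors and ligands upstream of these inhibitors had a lower mean in double-null kidneys, as did most genes on the arrays. Of 20 genes in this list 18 had a lower mean, 9 of them without overlap, and the median difference was -0.35. Among all genes 58.1% had a lower mean, and among those with a mean of at least 6 it was 71.5%, with 16.3% lower without overlap. At an unadjusted p under 0.05 in limma, 1679 of all 18193 genes were lower and 1101 higher. Of the 11174 with a mean of at least 6, 1384 were lower and 252 higher. The lists that follow are read against the same shares and counts. The median of the receptor list was -0.22 without M2, and -0.19 once the B1 signal was a covariate. Genes with a mean of at least 6 had medians of -0.09 and -0.02 in those fits. None of the 20 passed limma's adjusted p, and 7 were lower and 0 higher at an unadjusted p under 0.05. Ret stood at -1.11 (SE 0.25), its coreceptor gene Gfra1 at -0.89 (SE 0.20) and the ligand gene Gdnf at -0.73 (SE 0.16), each with limma adjusted p = 0.314 and without overlap. Fgfr1 and Fgfr2, FGF receptor genes chosen after their values were seen, stood at -0.35 and -0.20. Ret was itself lowest in M2, which read 7.75, beside 8.76 in M1 and 8.26 in M3, against 9.25, 9.32 and 9.51 in the Fz8-null arrays.

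Most genes of the Ras and MAPK core also had a lower mean. Of 15 measured genes 14 stood lower, with a median of -0.23, 5 were lower without overlap, and 0 passed limma's adjusted p (2 lower and 0 higher at an unadjusted p under 0.05). Cbl, a ubiquitin ligase that removes active receptors, stood at -0.73 (SE 0.20), the adaptor gene Grb2 at -0.52 (SE 0.19) and the docking protein gene Gab1 at -0.30 (SE 0.18). The other 6 genes of the list were not analysed here. The median was -0.09 without M2 and -0.11 with quantile normalization, fits in which genes averaging at least 6 had medians of -0.09 and -0.06.

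Genes that ERK induces were mixed. Of 12 measured ERK response genes 10 stood lower and 2 higher, with a median of -0.15, beside -0.06 for all genes. Among genes with a mean of at least 6, the response genes had a median of -0.26, beside -0.15 for all such genes. The median of the 12 was -0.27 without M3 and -0.25 without C1. All genes had medians of -0.10 and -0.05 in those fits. Of the 12, 3 were lower and 1 higher without overlap, and 0 passed limma's adjusted p (4 lower and 0 higher at an unadjusted p under 0.05). Etv5 read 9.87, 9.53 and 9.95 in double-null arrays, against 10.36, 10.57 and 10.66 in Fz8-null arrays, a difference of -0.74 (SE 0.16; limma adjusted p = 0.314). Etv5 and Etv4, which stood at -0.82 (SE 0.24), are ETS factor genes downstream of Ret in the ureteric tip. Egr1, an immediate early gene, stood at -0.88 (SE 0.22). Fos stood at 0.17, Myc at -0.10 and Ccnd1 at -0.21, values named after they were seen. The 6 ureteric tip markers, among them Ret, Etv4 and Etv5, lay on average -0.80, -1.15 and -0.76 from the Fz8-null mean in M1, M2 and M3, and the 6 nephron progenitor markers lay -0.95, -0.98 and -0.46 from it. The 5 endothelial markers, which include Kdr of the receptor list, lay -0.63, -1.09 and -0.13 from it, with 5 of 5 lower and 3 without overlap. The 5 stroma markers did not share this, and lay 0.12, 0.01 and 0.20 from the Fz8-null mean in M1, M2 and M3. Of these, 3 had a lower and 2 a higher mean, with 0 lower and 1 higher without overlap. The part of these marker lists in the differences of the 7 feedback genes was not tested.

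Other feedback inhibitors of the pathway spread more widely, from -1.42 to 0.70. Of 13 genes in this list 10 stood lower and 3 higher, 7 lower and 1 higher without overlap, with a median of -0.37. None passed limma's adjusted p, and 6 were lower and 1 higher at an unadjusted p under 0.05. Spred3 read 4.38, 3.99 and 4.51 in M1, M2 and M3, against 5.17, 5.89 and 6.07 in C1, C2 and C3, a difference of -1.42 (SE 0.27; limma adjusted p = 0.299). Its double-null values approached background, which bounds the measured difference. Dusp5, an ERK phosphatase of the nucleus, stood at -0.88 (SE 0.22) and Dusp9, a phosphatase of ERK and related kinases, at -0.74 (SE 0.22), both without overlap (limma adjusted p = 0.314). Dusp10, whose product acts on the stress kinases JNK and p38 rather than mainly on ERK, went the other way. It read 8.28, 8.27 and 7.64 in M1, M2 and M3, against 7.41, 7.53 and 7.16 in C1, C2 and C3, a difference of 0.70 (SE 0.21; limma adjusted p = 0.314), and was named after its value was seen. The median of this list was -0.52 without M3, and -0.17 once the B1 signal was a covariate. All genes with a mean of at least 6 had medians of -0.22 and -0.02 in those fits.

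**Figure D4:**
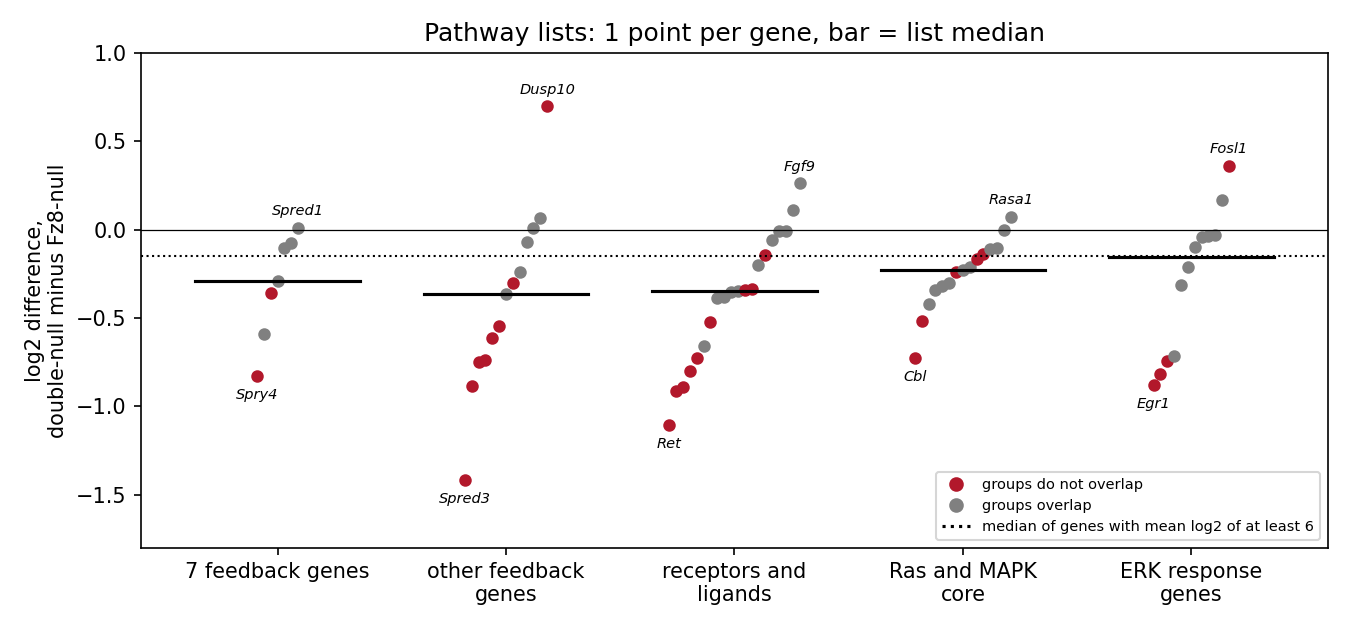
Log2 difference, double-null minus Fz8-null, of each gene in 5 lists; each point is a gene, red marks groups without overlap, black bars are list medians and the dotted line is the median of genes with a mean log2 value of at least 6. List medians lie between -0.37 for the remaining feedback genes and -0.15 for the ERK response genes, and Spred3, at -1.42, and Dusp10, at 0.70, are the lowest and highest points. Some listed genes have a mean log2 value under 6.

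The calls among members depended on how the arrays were weighted. With estimated array weights, which gave M1 a weight of 3.93 and M3 one of 0.211, Spry4, Spry1 and Dusp4 passed limma's adjusted p (0.00222, 0.0142 and 0.0481), in a fit in which 26.1% of all genes passed as lower. Spry4 was the only member that passed in more than 1 of the fits made. Those were the fit with array weights and the fit without M3, which both reduce the part of M3. Spry4 did not pass in any other fit.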

How the data were processed

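The authors deposited a table of log2 intensities with a value for each probe set on each array, made with RMA per the submitters' processing notes (version not stated), from biotin-labelled cRNA on Affymetrix MOE430.2 arrays started from 100 ng of total RNA per the labels. Array medians ran from 6.02 to 6.14, and the number of arrays limits the precision.

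Of 45101 probe sets, 64 controls were set aside. The platform annotation gave 1 gene for 34945 of the rest, several for 932 and none for 9160. Representative probe sets of 18193 genes were fitted with limma 3.58.1 in R 4.3.3 (lmFit, eBayes), and apart from that all 45037 probe sets. Adjustment was by Benjamini-Hochberg over each whole table, and tests were two-sided. Differences run as double-null minus Fz8-null. On simulated data with independent noise, the fit called 62% of genes shifted by 1 log2 unit and 98% of those shifted by 2. That noise held no array effects, so the simulation cannot show how the fit performs on these arrays. Exact permutation tests used the 20 splits of the arrays; over those, 0.1 is the smallest p.

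The 7 members and all lists were chosen with earlier results of these data known. Named genes were the members, Fzd4, Fzd8, Ret, Gfra1, Gdnf, Etv4, Etv5, the 3 genes of smallest p in each pathway list, and the 2 genes of most like pattern per member. Alternatives were a minimum mean of 6, quantile normalization, equal medians, trend and robust moderation, no moderation, array weights, a replicate block, each array left out, and the mean of a gene's probe sets; the 2 control covariates were added after the data were seen. A planned comparison of protein sequences was not made.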

Additional observations from a re-analysis of the deposited data

How the results depend on the processing

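In 16 alternative fits and the further probe sets, 325 of 383 recomputed values were labelled the same. Differences had to keep direction and side of the threshold, medians to move less than the replicate spread, and counts to stay within a set ratio. By that ratio 7 response genes lower with equal medians was the same as 10 in the main fit. Many labels were fixed in advance. Moderation settings, the replicate block and the minimum mean leave each member's difference unchanged, and several fits reuse the same values for overlap. With array weights Spry1 stood at -0.38, Spry4 at -1.01 and Dusp4 at -0.52, all 3 past the threshold, Spry2 turned to 0.12 and Dusp6 to 0.038; 3 members and 7576 genes passed (4744 lower, 2832 higher). In the lists 9 of the remaining feedback genes, 10 receptors and ligands, 5 core genes and 7 response genes passed with weights, and the medians of the first and last list were -0.54 and -0.28. With the B1 covariate Spred1 turned to -0.30 and Dusp4 to 0.033, 3 genes passed, the medians of the remaining feedback and core lists were -0.17 and -0.081, and 9 core genes stood lower. Genes with a mean of at least 6 had a median of -0.016 in that fit. With the actin covariate Spred1 turned to -0.082 and 9 genes passed. With the mean of all probe sets Spry2 turned to 0.0037, Spred1 to -0.090, and 1 gene passed; without moderation 1 passed. With equal medians 1 member was lower without overlap, and with quantile normalization the core median was -0.11. Other probe sets turned Spry2 to 0.085, Spry4 to 0.12 and Spred2 to 0.12, and Spred1 to -0.050, -0.25, -0.21, -0.37, -0.13 and -0.33. The cause of these shifts was not tested.

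Leaving out 1 array at a time gave differences of -0.49 to -0.26 for Spry1, -0.16 to 0.057 for Spry2, -0.96 to -0.71 for Spry4, -0.080 to 0.18 for Spred1, -0.39 to -0.14 for Spred2, -0.17 to 0.011 for Dusp6 and -0.84 to -0.23 for Dusp4. Spry2 and Dusp6 turned positive without M3 (0.057 and 0.011), and Spred1 turned negative without M1, M2, C1 or C2 (-0.080, -0.073, -0.031 and -0.043). Between 2 and 3292 genes and between 0 and 1 members passed; 3292 and 1 were without M3, 39 without M1, 4 without M2, 3 without C1 or C2 and 2 without C3. Between 2 and 4 members were lower without overlap, 4 without M3. Groups separate more easily with 1 array fewer. The share of all genes without overlap was not computed for these fits, so the rise is not read as a result about the members. The median of the members ran from -0.39 to -0.16. The list medians ran from -0.52 to -0.32 for the remaining feedback genes, from -0.48 to -0.22 for receptors and ligands, from -0.27 to -0.15 for response genes and from -0.33 to -0.094 for the core. Between 0 and 8 of the remaining feedback genes, 0 and 7 receptors and ligands, 0 and 2 core genes and 0 and 4 response genes passed, the higher number each time without M3.

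With the replicate block 3 genes passed and no member's call changed; Spry4 stood at -0.83 (limma adjusted p = 0.289). Within-group residuals of arrays that share a number had correlations of 0.17, -0.14 and 0.09. Those of arrays with unlike numbers ran from -0.23 to 0.25. With 3 arrays per group these values cannot tell whether the numbers pair the samples, and the labels state no pairing.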
